A study of Mus musculus with 12 samples.

Results

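Complex I (NADH:ubiquinone oxidoreductase) genes encoded in the nucleus were taken from a gene expression table of the mouse left ventricle by their symbols. Every row whose symbol starts with Ndufa, Ndufb, Ndufc, Ndufs, Ndufv, Ndufab or Ndufaf followed by a digit was a member, which gave 45 of 29564 genes. They were 7 core subunits (which carry the chemistry of the enzyme), 29 accessory subunits, 7 assembly factors (Ndufaf1 to Ndufaf7) and 2 genes, Ndufa4 and Ndufa4l2, whose products are now placed with complex IV and which are kept apart here. No row carried the symbol Ndufb1, Ndufb1-ps or Ndufaf8, so these genes were not analysed here. All 45 members passed the filter on low counts and were tested.

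Polyadenylated RNA was sequenced from the left ventricles of 12 wild-type C57BL6 mice (C57BL/6J in the study's methods), 1 library per mouse and 4 mice in each of 3 groups. Control-Veh mice (libraries C1 to C4) were non-failing and received vehicle. HFpEF-Veh mice (V1 to V4) carried a model of HFpEF, heart failure in which the ejection fraction is preserved, induced with a high-fat diet (HFD) and L-NAME, an inhibitor of nitric oxide synthase, and received vehicle. HFpEF-TYA-018 mice (T1 to T4) carried the same model and were given TYA-018 orally at 15 mg/kg, a compound that inhibits HDAC6 (a deacetylase), and the vehicle was a mixture of DMSO, PEG-300 and water. A single dose is named by the title of the series, and the study describes hearts harvested hours after it. The labels' protocol describes dosing every day over weeks instead, and the title is followed here. The study used male mice, and age at harvest is not given in the sources used here. The animal numbers of a group lie together, so a cage or handling order that follows them cannot be told apart from the group.

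Complex I is the entry point of electrons from NADH into the mitochondrial respiratory chain, and it pumps protons while it passes them to ubiquinone. Its peripheral arm holds the N module, where NADH is oxidised, and the Q module, where ubiquinone is reduced, and its membrane arm pumps protons. Some subunits of the membrane arm are encoded by mitochondrial DNA, so a complete enzyme needs products of both genomes and a set of assembly factors that leave once it is built. Heart muscle depends on oxidative metabolism and is dense in mitochondria.

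Estimated counts summed to between 61.2 and 83.9 M (1e06) per library, and T1 was the deepest. Values are CPM, the counts in every 1e06 after TMM scaling (mean ± SD, n = 4) unless a scale is named, and CPM is not corrected for gene length. Changes are log2 fold changes ± SE from edgeR, and calls were made at 0.05 on p-values adjusted by Benjamini-Hochberg over 14333 genes. The share of counts from mitochondrially encoded genes was 45.1 ± 2.05% in HFpEF-Veh, against 38.9 ± 1.61% in Control-Veh and 38.8 ± 2.64% in HFpEF-TYA-018 (exact two-sided permutation p 0.0286 for HFpEF-Veh against either group, the smallest 4 against 4 can give, adjusted p 0.129 over 9 tests). Ventricular markers (Myl2, Myl3, Irx4) summed to between 6890 and 15400 CPM and atrial markers to no more than 2.92, so the libraries matched the labelled tissue. No listed marker was at 0 in every library.

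Several of these cell type sums moved with the groups. The 6 cardiomyocyte markers summed to 15900 to 19300 CPM in Control-Veh and 12300 to 13300 in HFpEF-Veh, with 14000 to 15400 in HFpEF-TYA-018, and the 3 ranges did not overlap. The 5 red cell genes (globins and Alas2) summed to 1550 to 2310, 4780 to 14100 and 2300 to 3570 CPM in the same order. Fibroblast markers (5 of 5 tested) ran from 408 to 612, 604 to 857 and 394 to 581 CPM, endothelial markers (4 of 4) from 537 to 669, 715 to 879 and 523 to 680, and macrophage markers (3 of 4 tested) from 29.1 to 40.7, 46.4 to 56.5 and 31.6 to 37.9. Fat cell markers did not exceed 1.14 CPM in sum. In bulk tissue, fewer cells of a type and less RNA per cell cannot be told apart, and the part of these shifts in the values of complex I genes was not tested.

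Accessory and core subunits were abundant and assembly factors were scarce. On the TPM scale, which is corrected for length, accessory subunits had a median of 283 TPM in Control-Veh (range 5.5 to 815), core subunits of 169 and assembly factors of 8.84 (0.27 to 19.6). Ndufa3, a small membrane subunit, headed the order at 815 ± 190 TPM (SD, n = 4), followed by Ndufb9 at 733 ± 115, and these neighbours differed by less than their spread. Ndufs7, a core subunit beside the ubiquinone pocket, stood at 488 ± 96.4 TPM. The lowest core subunit was Ndufs8, an iron-sulfur protein of the Q module, at 30.3 ± 2.91 TPM. The lowest accessory subunit was Ndufs4, which joins the N module late in assembly, at 5.5 ± 0.479 TPM. Ndufa9, another accessory subunit, stood at 20.7 ± 3.65 TPM. Low values of Ndufs8, Ndufa9 and Ndufs4 beside subunits of the same enzyme are given as deposited. They may not be the true levels, and the reason was not tested. Ndufa4, counted with complex IV, had estimated counts between 0 and 48.7 per library. It is known as an abundant transcript of heart muscle, so this value is doubtful as a level.

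The first comparison asked how the HFpEF model changed these genes. In HFpEF-Veh, 42 of 45 members had a fitted level below Control-Veh, and 7 fell past the threshold (15.6%), while none rose. Of all genes tested, 10.3% were called lower and 10.9% higher, so the share of members that fell was not far from that of the whole table. The 7 were the core subunits Ndufs7, Ndufs3 and Ndufv1, the accessory subunits Ndufb11, Ndufb9 and Ndufa12, and the assembly factor Ndufaf6. The median change was -0.26 (log2) over the 36 subunits and -0.08 over the 7 assembly factors, against -0.01 over all genes. An unadjusted p under 0.05 was reached by 20 of 45 members and by 5093 of all 14333 genes.

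Ndufv1, which holds the flavin that accepts electrons from NADH, was measured at 451, 580, 518 and 527 CPM in C1 to C4, at 384, 417, 407 and 413 in V1 to V4 and at 663, 597, 550 and 529 in T1 to T4. Every HFpEF-Veh library was below every library of the other groups. The change in HFpEF-Veh was -0.36 ± 0.0877 (adjusted p 0.0141), from 519 ± 53.1 to 405 ± 14.5 CPM. The gene lies at chr19:4007384-4012806 on the minus strand (GRCm38).

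Ndufs7 had the largest fitted fall among the subunits. Its levels were 280, 499, 370 and 376 CPM in Control-Veh, 265, 294, 234 and 267 in HFpEF-Veh, then 395, 396, 337 and 351 in HFpEF-TYA-018. Control library C1 lay inside the HFpEF-Veh range, and the other control libraries lay above it. The change was -0.52 ± 0.142 (adjusted p 0.0218), and the gene lies at chr10:80249121-80256794 on the plus strand. Ndufs3, a scaffold of the Q module, read 229, 334, 276 and 276 CPM in Control-Veh against 202, 247, 216 and 217 in HFpEF-Veh, with C1 again inside the lower range. It changed by -0.34 ± 0.106 (adjusted p 0.0397). Of the 31-base words of its longest coding transcript, 49.3% are shared with other annotated genes, mainly a processed pseudogene. That pseudogene had a mean count of 16 against 18438 for Ndufs3. How far shared words affect the level of Ndufs3 was not tested.

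The other core subunits did not pass the threshold. Ndufv2, an iron-sulfur protein beside the flavin, averaged 472 ± 71.2 CPM in Control-Veh and 409 ± 22.3 in HFpEF-Veh (-0.21, adjusted p 0.135). Ndufs1, the large iron-sulfur protein of the N module, averaged 297 ± 12.7 and 287 ± 25.9 CPM (-0.05, adjusted p 0.645). Ndufs8 stood at 41.2 ± 4.04 and 37.3 ± 9.74 CPM (-0.15, adjusted p 0.566), and V1 (24.7 CPM) was below all other libraries. Thus 3 of 7 core subunits were called lower.

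Among accessory subunits 3 of 29 were called lower, and 28 of 29 had a fitted level below Control-Veh. Ndufb11, a subunit of the distal membrane arm, read 254, 414, 310 and 333 CPM in Control-Veh and 232, 272, 228 and 243 in HFpEF-Veh (-0.43 ± 0.127, adjusted p 0.0322). Ndufb9, of the same arm, averaged 532 ± 104 and 399 ± 11 CPM (-0.42 ± 0.12, adjusted p 0.0289). Ndufa12, which completes the peripheral arm, averaged 371 ± 72.2 and 288 ± 24.1 CPM (-0.37 ± 0.12, adjusted p 0.0475). In all 3 genes library C1 fell within the HFpEF-Veh range. Shared 31-base words made up 19.1%, 25.5% and 29.3% of the transcripts of Ndufb11, Ndufb9 and Ndufa12, and Ndufb9 overlaps another annotated gene on its strand. The pseudogenes that share most with Ndufb11 and Ndufa12 had mean counts of 7.8 and 126.3, against 20246.5 and 21158.1 for these subunits. For Ndufb9 no such count was available. How far shared words affect these levels was not tested. Ndufc2, a membrane subunit, was the 1 accessory subunit with a fitted level above control, at 118 ± 21.2 and 121 ± 1.2 CPM (0.04, adjusted p 0.84).

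Of the 7 assembly factors 1 was called. Ndufaf6, which acts early in assembly, read 8.99, 11, 10.4 and 9.88 CPM in Control-Veh, 6.77, 5.98, 8.16 and 7.2 in HFpEF-Veh, then 10.8, 11.1, 8.19 and 9.16 in HFpEF-TYA-018. Its HFpEF-Veh libraries were all below those of the other groups, although V3 (8.16) and T3 (8.19) nearly met. The change was -0.52 ± 0.119 (adjusted p 0.0105), and the gene lies at chr4:11051045-11076205 on the minus strand. Ndufaf3, a partner of Ndufaf4 on the Q module, had -0.24 (adjusted p 0.139), Ndufaf7 -0.22 (adjusted p 0.5), Ndufaf2 -0.08 (adjusted p 0.493), Ndufaf1 -0.06 (adjusted p 0.624) and Ndufaf5 -0.04 (adjusted p 0.809). Ndufaf4 lay on the other side of 0, with 33.3 ± 2.49 CPM in Control-Veh and 34.7 ± 1.35 in HFpEF-Veh (0.06, adjusted p 0.601).

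Across the parts of the enzyme, the medians were alike in this comparison, at -0.30 for 10 N module subunits, -0.26 for 6 of the Q module, -0.25 for 9 of the proximal and -0.28 for 10 of the distal membrane arm. The groups overlapped for most members, and 2 (Ndufv1 and Ndufaf6, 4.44%) had every HFpEF-Veh library below every control, against 11.5% of all genes tested. The spread lay within the controls, as the plot of members by library shows. The median deviation of the 36 subunits from their means (log2) was -0.25 in C1 and 0.38 in C2, against 0.06 in C3 and 0.13 in C4, so C1 lay at the level of HFpEF-Veh (-0.28 to -0.05). Without C1, 31 members were called, all lower, including all 7, and the subunit median was -0.37. Without C2, 2 members were called (median -0.17), and 4 without C3, 3 without C4, V1 or V4 and 2 without V3. Calls over all genes, in either direction, moved too, from 3033 of 14333 to 4008 without C1. They numbered between 1992 (without C4) and 2564 (without V1) with any other library left out.

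**Figure D1:**
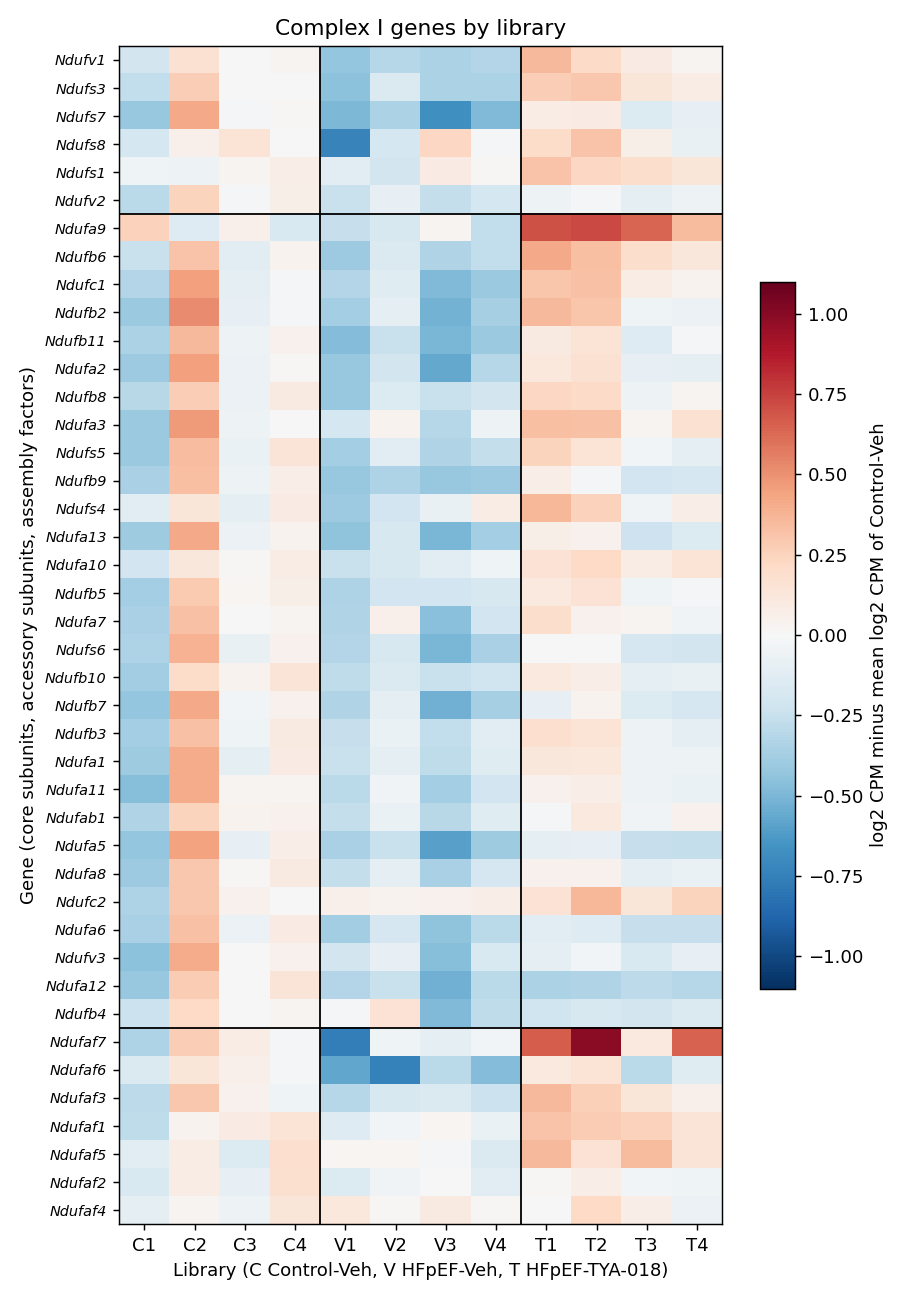
Level of 42 core subunits, accessory subunits and assembly factors (rows) in each of the 12 libraries (columns), as log2 CPM minus the mean log2 CPM of the 4 Control-Veh libraries. HFpEF-Veh columns are mostly below 0, control C1 resembles them and control C2 lies above 0 for most genes.

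Single calls depended on the libraries as well. Ndufv1 and Ndufaf6 kept an adjusted p under 0.05 with any 1 of the 8 libraries left out (largest 0.0402 and 0.0318). Ndufv1 lost its call, however, with the effective length as an offset (-0.27, adjusted p 0.244), on both TPM scales (adjusted p 0.26 and 0.232) and in a matrix prepared like the study's (adjusted p 0.369), and Ndufaf6 on both TPM scales (adjusted p 0.0916 and 0.072). Ndufs7 lost its call without C2 or V3 (largest adjusted p 0.0642). Ndufs3 and Ndufb11 lost theirs without C2, C3, C4, V1, V3 or V4 (largest 0.107 and 0.0833), Ndufb9 without C2, C4, V1, V3 or V4 (0.0736), and Ndufa12 without any library but C1 (0.135). Ndufs7, Ndufs3, Ndufb11, Ndufb9 and Ndufa12 also lost their calls with the offset and on both TPM scales. In the study's matrix Ndufs3, Ndufb11 and Ndufa12 lost theirs, while Ndufs7 and Ndufb9 kept them. Over all genes the offset called 1445, the TPM scales 172 and 301, and the study's matrix 1055, against 3033 in the reported fit. With the red cell score as a covariate, an alternative chosen after seeing the data, edgeR called 0 of 45 members in this comparison and 0 had an unadjusted p under 0.05, while 3 of 14333 genes in all were called. That score separated HFpEF-Veh from both other groups, so the score and the group cannot be told apart. DESeq2 called 15 members, all lower, and 3755 of 14333 genes in all, against 3033 in the reported fit.

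**Figure D2:**
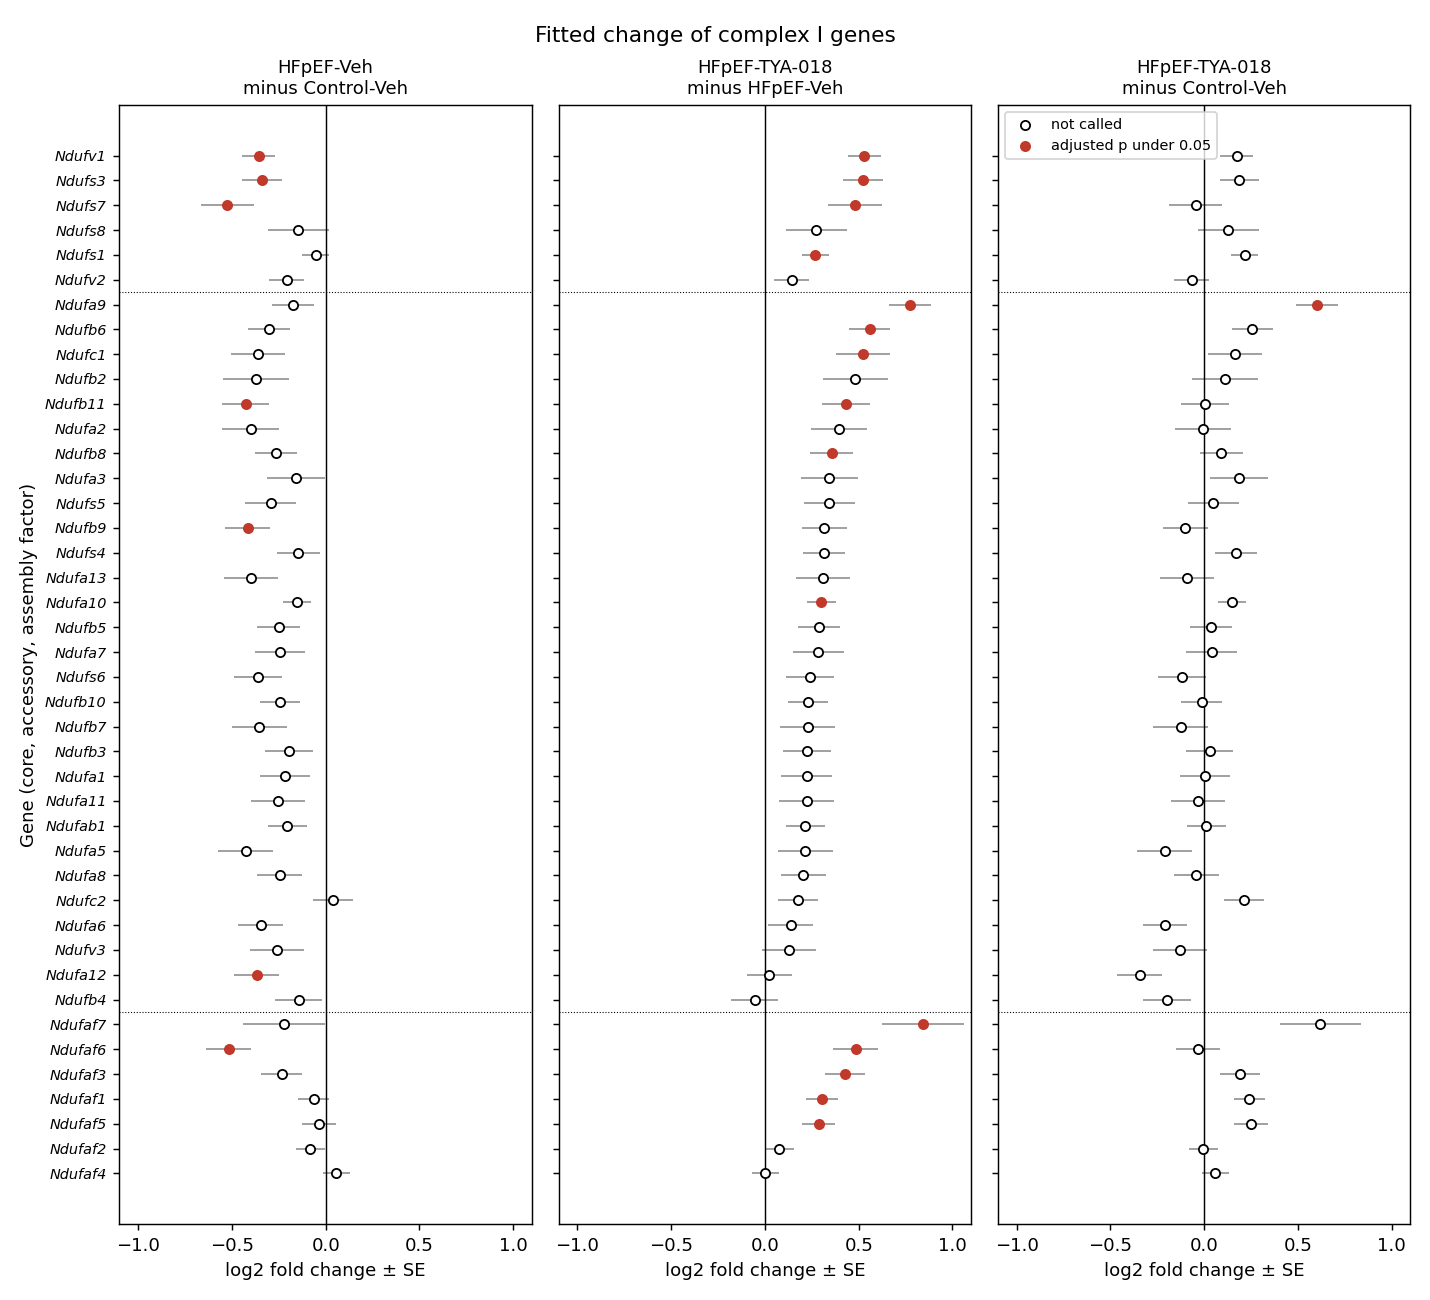
Fitted log2 fold change of 42 genes (points) with its SE (bars) in the 3 comparisons, with filled points at an adjusted p under 0.05. The 7 filled points of the first panel lie below 0, the 15 of the second above 0, and the third holds 1, Ndufa9.

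The second comparison asked what the TYA-018 dose changed in the HFpEF hearts. In HFpEF-TYA-018, 43 of 45 members had a fitted level above HFpEF-Veh, and 16 rose past the threshold (35.6%), against 8.93% of all genes tested that were called higher. None of the members fell, while 10.4% of all genes did. The calls fell on 5 of 7 core subunits, 6 of 29 accessory subunits and 5 of 7 assembly factors. The median change was 0.29 over the subunits and 0.31 over the assembly factors, against 0.00 over all genes. For 25 members (55.6%) every HFpEF-TYA-018 library was above every HFpEF-Veh library, against 12% of all genes. This comparison shares the HFpEF-Veh libraries with the first, so the signs of both are not independent.

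Core subunits rose by up to 0.53 (log2). Ndufv1 rose by 0.53 ± 0.0878 (adjusted p 0.00285), from 405 ± 14.5 to 585 ± 59.6 CPM, with T1 highest. Ndufs3 rose by 0.52 ± 0.106 (adjusted p 0.00664), to 334, 340, 302 and 293 CPM in T1 to T4. Ndufs7 rose by 0.48 ± 0.142 (adjusted p 0.0343).

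Ndufs1, which had not been called in the model, also rose. It read 274, 258, 316 and 299 CPM in HFpEF-Veh against 369, 347, 339 and 326 after the dose, a change of 0.27 ± 0.0719 (adjusted p 0.0228). The groups did not overlap. Ndufv2 (409 ± 22.3 and 451 ± 11 CPM, 0.14, adjusted p 0.319) and Ndufs8 (37.3 ± 9.74 and 45 ± 5.35 CPM, 0.27, adjusted p 0.265) did not pass the threshold, and the groups of both overlapped.

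Ndufa9, an accessory subunit at the joint of the peripheral and membrane arms, had the largest rise of any subunit. It read 112, 84.9, 97.3 and 83.1 CPM in Control-Veh, 78.6, 82.7, 95.5 and 77.6 in HFpEF-Veh, then 152, 155, 146 and 119 in HFpEF-TYA-018. All treated libraries were above all others, and both untreated groups overlapped. The change against HFpEF-Veh was 0.77 ± 0.113 (adjusted p 0.00156). The level of Ndufa9 was low for a subunit, at 20.7 ± 3.65 TPM in Control-Veh. Its deposited effective length ran from 1455 to 2130 bases between libraries, longer than its principal transcript of 1445 bases. Which of its transcripts gave the counts was not tested. The gene lies at chr6:126821721-126849136 on the minus strand and overlaps an antisense gene, and whether the counting used strand is not given in the sources used here.

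The other accessory subunits called higher belonged to the membrane arm. Ndufb6 read 75.9, 89.4, 79.4 and 82.8 CPM in HFpEF-Veh and 133, 126, 114 and 109 in HFpEF-TYA-018 (0.56 ± 0.11, adjusted p 0.00603). Ndufa10 averaged 427 ± 24.9 and 526 ± 19.4 CPM (0.30 ± 0.0764, adjusted p 0.0188), and Ndufc1 128 ± 14 and 183 ± 18.5 CPM (0.52 ± 0.145, adjusted p 0.0269). Ndufb11 (0.43 ± 0.127, adjusted p 0.0338) and Ndufb8 (0.36 ± 0.114, adjusted p 0.0467) completed the 6, and Ndufb8 is named here after its values were seen. None of these groups overlapped. Ndufb4, of the distal arm, was the 1 accessory subunit with a fitted level below HFpEF-Veh, at 108 ± 20.9 and 104 ± 2.16 CPM (-0.05, adjusted p 0.802), and shared words made up 38.3% of its transcript.

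The changes of Ndufa10 and Ndufs1 depended on the scale. The deposited effective length of Ndufa10, which divides the count to give TPM, ran from 309 to 1181 bases between libraries, and its TPM averaged 376 ± 67.9 in the HFpEF-Veh hearts and 293 ± 79.2 after the dose, the reverse of its CPM. Its fitted change was -0.76 (adjusted p 0.131) with the effective length as an offset. In the first comparison it turned as well, from -0.15 to 0.82 (adjusted p 0.103). The effective length of Ndufs1 ran from 874 to 2767 bases, and its TPM averaged 76.7 ± 37.3, 46.1 ± 22.9 and 111 ± 25.3 in the control, vehicle HFpEF and treated hearts. With the offset its change was -0.49 (adjusted p 0.449) in the first comparison and 0.77 (adjusted p 0.236) in the second, and on log2(TPM + 1) -0.69 (adjusted p 0.309) and 1.33 (adjusted p 0.0365). Of the 45 members, 3 (the last Ndufaf4) had effective lengths that differed by more than 2-fold between libraries, and the median ratio of longest to shortest was 1.18.

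Assembly factors that rose were Ndufaf1, Ndufaf3, Ndufaf5, Ndufaf6 and Ndufaf7. Ndufaf7, a mitochondrial methyltransferase, read 1.1, 1.8, 1.73 and 1.82 CPM in HFpEF-Veh and 2.96, 3.71, 2 and 2.92 in HFpEF-TYA-018 (0.84 ± 0.218, adjusted p 0.0202), on counts of 63.7 to 279 per library. Ndufaf6 rose by 0.48 ± 0.119 (adjusted p 0.0162), to 9.83 ± 1.39 CPM beside 10.1 ± 0.852 in Control-Veh. Ndufaf3 rose from 17.1 ± 0.796 to 23 ± 2.12 CPM (0.43 ± 0.108, adjusted p 0.0182).

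The remaining changes among assembly factors were smaller. Ndufaf1, part of the complex that builds the membrane arm, read 25.7, 27.8, 28.7 and 27 CPM in HFpEF-Veh and 35.3, 34.4, 33.9 and 31.3 in HFpEF-TYA-018 (0.30 ± 0.0829, adjusted p 0.0249). Ndufaf5, which hydroxylates Ndufs7, rose from 10.6 ± 0.615 to 12.9 ± 1.04 CPM (0.29 ± 0.0894, adjusted p 0.042). Ndufaf2, which is exchanged for Ndufa12 in the finished enzyme, averaged 12.1 ± 0.619 and 12.8 ± 0.471 CPM (0.08, adjusted p 0.525). Ndufaf4 averaged 34.7 ± 1.35 and 34.7 ± 3 CPM (0.00, adjusted p 0.986).

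By module the second comparison had medians of 0.26 in the N module (2 of 10 called), 0.43 in the Q module (4 of 6), 0.30 in the proximal (2 of 9) and 0.30 in the distal membrane arm (3 of 10), and differences between modules were not tested. Without T1 or T2 the count of members called was 6 and 5, without V1 it was 9, and it lay between 11 and 15 without any of the others. Of all 14333 genes 1493, 1639 and 2027 were called without T1, T2 and V1, against 2767 in the reported fit. That count lay between 1937 and 2746 without any of the others. Ndufv1, Ndufs3, Ndufa9 and Ndufb6 kept their calls with any 1 of 8 libraries left out. With the effective length as an offset Ndufv1 (adjusted p 0.0524) and Ndufs3 (adjusted p 0.0623) lost theirs, as Ndufv1 did in the study's matrix (adjusted p 0.0844), while Ndufa9 and Ndufb6 kept them in both. Ndufa10 lost its call without T2 (adjusted p 0.0569), and Ndufaf3, Ndufaf6 and Ndufaf7 without T1 or T2 (largest 0.0591, 0.0529 and 0.0641). Ndufs7, Ndufb11 and Ndufc1 lost theirs without V1, V3, V4, T1 or T2 (largest 0.0894, 0.0919 and 0.0745), Ndufs1 without V1, V2, T1 or T2 (0.0695) and Ndufaf1 without V1, V4, T1, T2 or T3 (0.0721). Ndufaf5 kept its call only without T4 and Ndufb8 only without T3 (largest 0.12 and 0.126). With the offset Ndufs1, Ndufs7, Ndufb8, Ndufb11, Ndufc1, Ndufa10, Ndufaf1, Ndufaf5 and Ndufaf6 lost their calls as well. All of these but Ndufs7 and Ndufc1 lost them in the study's matrix too, and Ndufaf3 and Ndufaf7 kept theirs in both. Over all genes the offset called 1217 and the study's matrix 742.

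With the red cell score as a covariate, edgeR called 0 of 45 members in the second comparison, 2 had an unadjusted p under 0.05, and 6 genes of the whole table were called. The subunit median was then 0.19. DESeq2 called 22 members, all higher, and 3408 of 14333 genes in all, against 2767 in the reported fit.

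**Figure D3:**
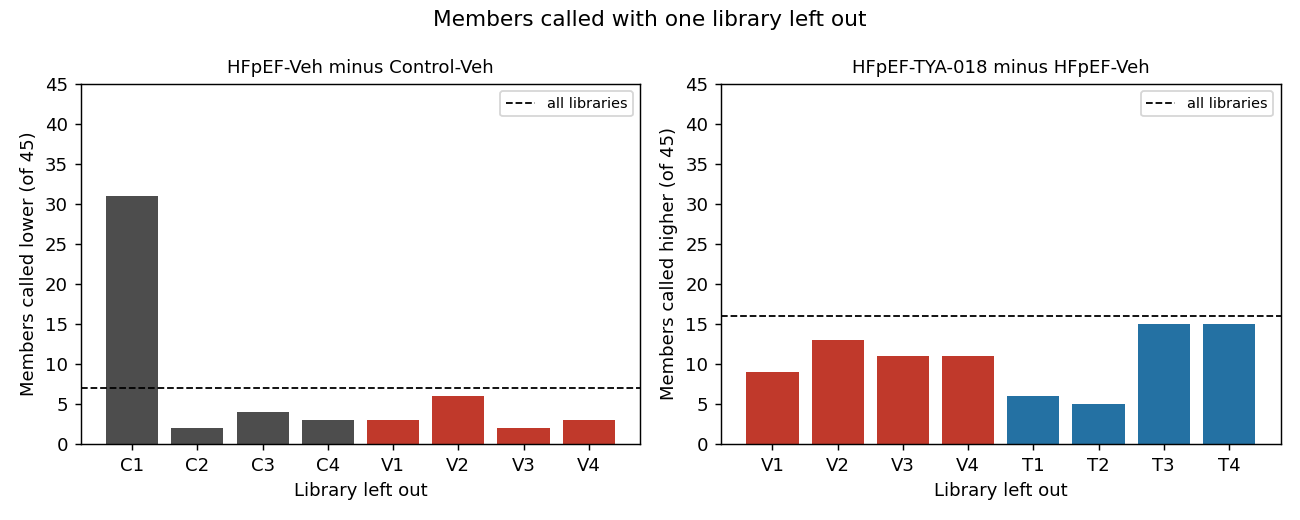
Number of the 45 members called lower in HFpEF-Veh against Control-Veh (left) and higher in HFpEF-TYA-018 against HFpEF-Veh (right) when the library on the horizontal axis is left out, with the count from all libraries as a dashed line. Leaving out C1 raised the first count from 7 to 31, and leaving out T1 or T2 lowered the second from 16 to 6 or 5. Calls over all genes, not drawn, went from 3033 to 4008 and from 2767 to 1493 or 1639.

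The third comparison set treated HFpEF hearts against healthy ones. Of the members 1 was called, Ndufa9, which rose by 0.60 ± 0.112 (adjusted p 0.0128), from 94.3 ± 13.3 to 143 ± 16.4 CPM (2.22% called higher, against 3.12% of all genes, and 2.74% of all genes called lower). Its call held with any 1 library left out (adjusted p 0.00737 to 0.0443) and with the red cell score as a covariate. It was lost with the effective length as an offset, on both TPM scales and in a matrix prepared like the study's. The other 44 did not pass the threshold. An unadjusted p under 0.05 was reached by 9 of 45 members and by 3219 of all 14333 genes. The median change was 0.02 over the subunits and 0.19 over the assembly factors, against -0.02 over all genes. Ndufaf7 was measured at 1.89 ± 0.318 and 2.9 ± 0.699 CPM (0.62, adjusted p 0.117), and the groups overlapped. Ndufa12 had the lowest value among subunits, -0.34 (adjusted p 0.117).

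Ndufa4l2, a gene related to Ndufa4, was not called in any comparison, at 13.6 ± 2.93, 16 ± 2.93 and 17.2 ± 1.9 CPM in the 3 groups. Ndufa4 lay between 0 and 0.715 CPM in every library, and no fold change is given.

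Complex I subunits encoded by the mitochondrial genome had mixed signs, and those called were higher in the model or lower after the dose. Of the 7 mt-Nd genes, mt-Nd4 (0.34, adjusted p 0.0467) and mt-Nd5 (0.53, adjusted p 0.0382) rose in HFpEF-Veh (28.6%, against 10.9% of all genes). In HFpEF-TYA-018 against HFpEF-Veh 4 fell (57.1%, against 10.4% of all genes), namely mt-Nd1 (-0.36, adjusted p 0.0198), mt-Nd2 (-0.56, adjusted p 0.0344), mt-Nd4 (-0.39, adjusted p 0.0285) and mt-Nd5 (-0.64, adjusted p 0.0203). On the TPM scale mt-Nd1 averaged 25240 ± 2680, 22770 ± 1180 and 21390 ± 1550 in the control, vehicle HFpEF and treated hearts. There HFpEF-Veh was below control, unlike in CPM. The mean TPM of mt-Nd2, mt-Nd4 and mt-Nd5 was highest in HFpEF-Veh, as their mean CPM was. The 7 summed to 165000 ± 13700 CPM in HFpEF-Veh, 130000 ± 3940 in Control-Veh and 121000 ± 22300 in HFpEF-TYA-018, where T1 had 92970 and T4 147100. The 36 nuclear subunits summed to 8371, 12940, 10370 and 10940 CPM in C1 to C4, 8447, 9367, 8313 and 8872 in V1 to V4 and 11400, 11380, 10170 and 10220 in T1 to T4. Nuclear subunit counts were thus 5.32 ± 0.36% of mt-Nd counts in HFpEF-Veh, against 8.19 ± 1.57% in Control-Veh and 9.25 ± 2.3% in HFpEF-TYA-018, and the HFpEF-Veh range (4.84 to 5.66%) lay below both others. Counts were made from polyadenylated RNA, so these shares do not compare amounts of all mitochondrial transcripts.

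**Figure D4:**
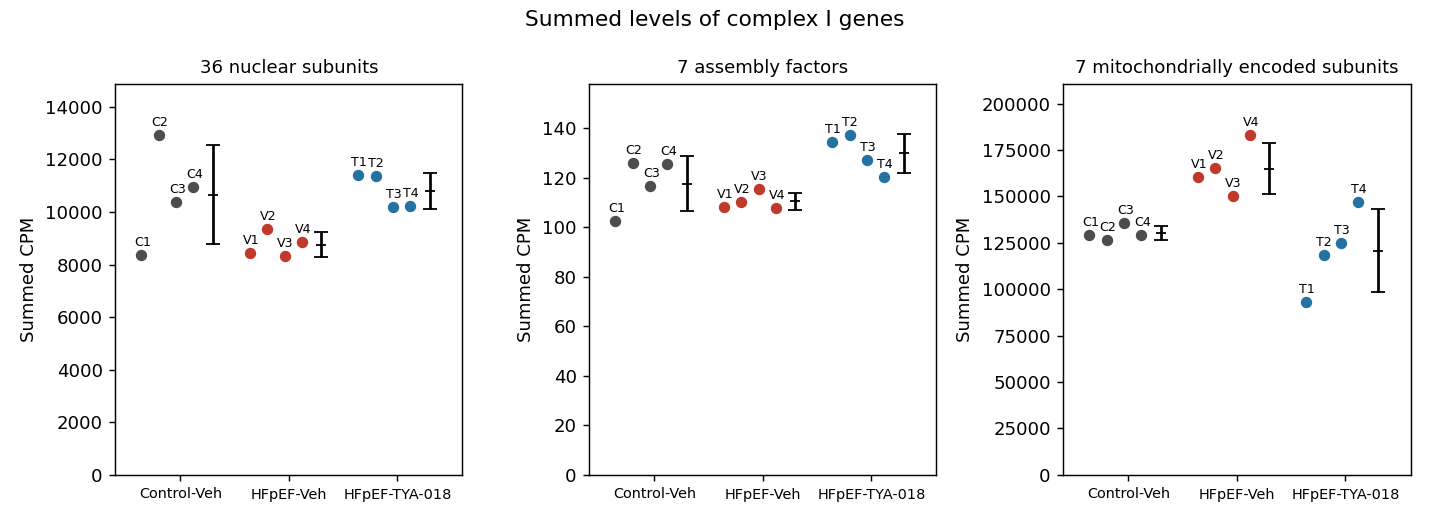
Summed CPM per library (points, named) of the 36 nuclear subunits, the 7 nuclear assembly factors and the 7 mitochondrially encoded subunits, with group mean and SD beside them. HFpEF-Veh libraries are lowest as a group for nuclear subunits, with C1 among them, and highest for the mitochondrially encoded ones.

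Assembly factors whose symbols do not start with Nduf were followed as well, 14 listed and 11 tested. In HFpEF-Veh 2 fell, Acad9 (-0.53 ± 0.121, adjusted p 0.0102) and Tmem126a (-0.23 ± 0.0672, adjusted p 0.0329). These were 18.2% of the 11, against 10.3% of all genes called lower. In HFpEF-TYA-018 against HFpEF-Veh 6 rose (54.5%, against 8.93% of all genes), and no other passed the threshold. Acad9, which works with Ndufaf1 on the membrane arm, read 12.9, 13.8, 11.6 and 10.6 CPM in Control-Veh, 8.05, 10.8, 7.28 and 7.67 in HFpEF-Veh, then 15.2, 14.4, 13.5 and 15.1 in HFpEF-TYA-018 (0.79 ± 0.121, adjusted p 0.00207). The other 5 were Nubpl, which supplies iron-sulfur clusters (0.45, adjusted p 0.0122), Foxred1 (0.38, adjusted p 0.00858), Aifm1 (0.36, adjusted p 0.0154), Tmem126b, a further partner of Ndufaf1 (0.26, adjusted p 0.0346), and Tmem70 (0.24, adjusted p 0.029). None was called against Control-Veh, where 2 of 11 had an unadjusted p under 0.05, against 3219 of all 14333 genes. How far the calls of these other assembly factors depend on single libraries or on the scale was not examined.

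The members had short transcripts, and the median change of all genes differed with transcript length. The median length of the principal transcript was 763 bases for accessory subunits, 1623 for core subunits, 1451 for assembly factors and 2905 for all genes tested. In HFpEF-Veh against Control-Veh the 832 genes with transcripts under 1000 bases had a median of -0.16, and the longer genes 0.00. The 22 subunits of that length had -0.28 and the 14 longer ones -0.23. In HFpEF-TYA-018 against HFpEF-Veh the same short genes had a median of 0.15 and the longer -0.01, while short subunits had 0.26 and longer ones 0.30. The level of genes under 1000 bases ran from -0.16 in C1 to 0.20 in C2 (median log2 deviation). C2 was highest for the subunits as well, and there C1 (-0.25) lay just above the lowest library, V3 (-0.28). When each library's trend with length was taken out, a fit chosen after seeing the data, the subunit median was -0.15 in the first and 0.18 in the second comparison, with 13 members called lower and 1 higher (Ndufa4l2, named after its values were seen) in the first and 18 called higher in the second. Of 13269 genes in that fit, 3315 were called in the first and 2786 in the second comparison. The part of length in the result for single genes was not tested.

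**Figure D5:**
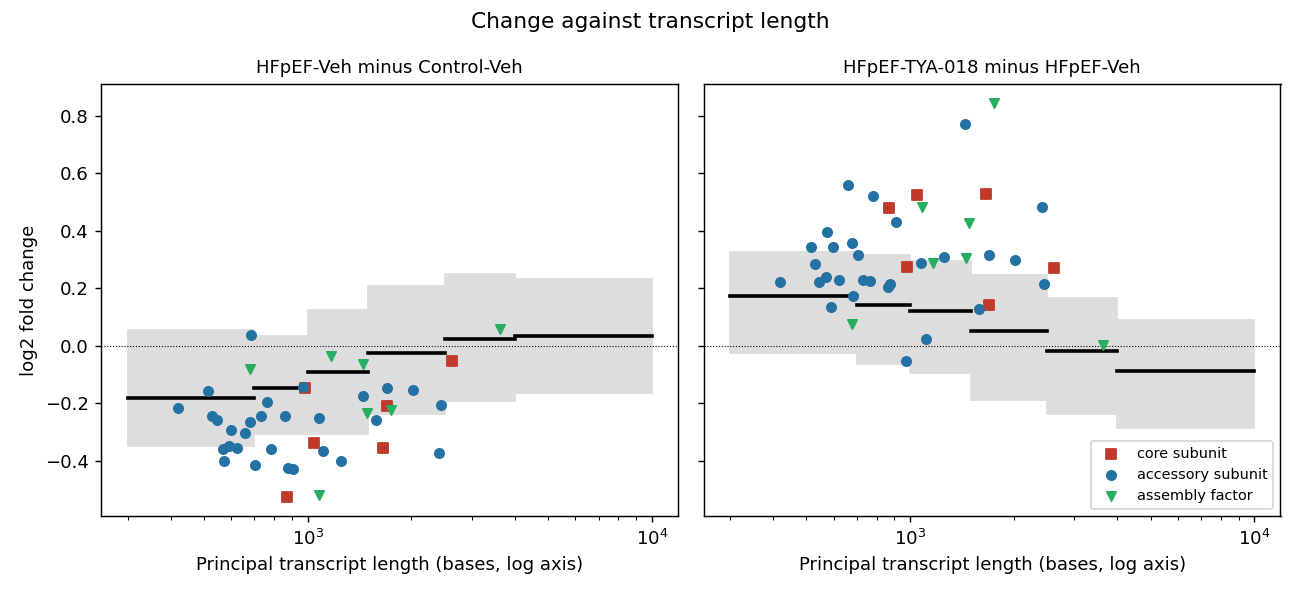
Log2 fold change of core subunits, accessory subunits and assembly factors (points) against principal transcript length (log axis), over the median (line) and quartiles (grey) of all genes in 6 length bins. Short genes as a whole lie below 0 in the first comparison and above 0 in the second, and most subunits lie beyond the median of their bin.

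The genes called both in the model and after the dose were Ndufv1, Ndufs3, Ndufs7, Ndufb11 and Ndufaf6. The promoter windows of the 4 with an entry in the RefSeq table (build GRCm38.p6, from 250 bases before to 50 after the start site) are shown. They were chosen by the calls in both comparisons, which share the HFpEF-Veh libraries. Whether these genes move together more than other members was not tested. Capitals mark matches to 5 short motifs, searched on both strands, of factors known for mitochondrial or housekeeping promoters: NRF1 (GCGCATGC), ETS factors (CCGGAAG), YY1 (AAGATGG), the estrogen-related receptors (AAGGTCA) and NF-Y (CCAAT). No motif overlaps another in these windows. The windows lie at chr19:4012706-4013005 (minus strand) for Ndufv1, chr2:90904672-90904971 (minus) for Ndufs3, chr10:80249199-80249498 (plus) for Ndufs7 and chrX:20617570-20617869 (minus) for Ndufb11.
Ndufv1: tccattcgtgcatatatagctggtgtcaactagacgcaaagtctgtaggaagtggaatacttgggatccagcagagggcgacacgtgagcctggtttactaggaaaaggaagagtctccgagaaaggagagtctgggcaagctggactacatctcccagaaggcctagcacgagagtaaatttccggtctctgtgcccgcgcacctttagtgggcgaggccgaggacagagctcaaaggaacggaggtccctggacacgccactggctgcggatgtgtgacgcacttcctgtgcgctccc
Ndufs3: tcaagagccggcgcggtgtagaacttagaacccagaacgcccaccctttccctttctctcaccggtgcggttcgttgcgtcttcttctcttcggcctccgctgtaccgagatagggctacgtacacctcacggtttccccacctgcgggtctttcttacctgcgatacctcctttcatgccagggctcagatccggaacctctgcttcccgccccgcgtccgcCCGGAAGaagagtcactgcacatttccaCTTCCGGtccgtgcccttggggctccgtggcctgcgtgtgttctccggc
Ndufs7: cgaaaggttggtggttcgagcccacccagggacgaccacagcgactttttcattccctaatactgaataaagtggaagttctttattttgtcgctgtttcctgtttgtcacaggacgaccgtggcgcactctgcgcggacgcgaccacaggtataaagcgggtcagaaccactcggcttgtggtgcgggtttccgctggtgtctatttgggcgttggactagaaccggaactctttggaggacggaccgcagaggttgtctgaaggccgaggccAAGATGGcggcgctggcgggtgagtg
Ndufb11: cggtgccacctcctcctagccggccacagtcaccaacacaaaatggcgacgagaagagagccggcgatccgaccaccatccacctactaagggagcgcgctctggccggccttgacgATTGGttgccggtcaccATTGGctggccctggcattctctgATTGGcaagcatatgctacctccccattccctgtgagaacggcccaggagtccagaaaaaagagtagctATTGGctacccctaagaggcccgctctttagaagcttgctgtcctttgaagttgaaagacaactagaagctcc
No motif occurred in more than 1 of the 4 windows. Ndufs3 had the ETS letters on both strands, from position -27 and from position 2 (counted from 1 at the start site), Ndufs7 the YY1 letters from position 25, and Ndufb11 the NF-Y letters on the minus strand at 4 places. None of the 5 motifs was found in the Ndufv1 window.

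Windows were found for 39 of 45 members (41 windows), and 32851 windows of all genes served as background. The NRF1 letters were in 12.2% of member windows and 2.71% of all, those of YY1 in 17.1% and 6.34%, those of ETS factors in 12.2% and 8.86%, those of the estrogen-related receptors in 7.32% and 4.72% and those of NF-Y in 31.7% and 37.4%. These are counts of letters and were not tested.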

How the data were processed

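RNA was sequenced from 12 left ventricles (4 per group, grouped by sample title), with 61.2 to 83.9 M estimated counts per library. The authors quantified reads with salmon 1.6.0, after trimming with fastp, against mouse GENCODE transcripts of GRCm38 and summed them to genes with tximport. They deposited estimated counts per gene (not normalised, fractional where a read fits several transcripts), TPM, and gene-level effective lengths in bases (another unit). The labels list a human build, which the mouse symbols contradict, and labels and methods differ on read length and layout. All deposited columns were used (0 left out).

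Rounded counts entered edgeR 4.0.16 (R 4.3.3): filterByExpr by group (14333 genes, 99.98% of counts), TMM, 1 quasi-likelihood fit of all 12 libraries with 9 residual degrees of freedom, two-sided F tests, Benjamini-Hochberg over all genes. The fit was tested on simulated counts. The members and lists were chosen with earlier results of these data known. The genes named were the core subunits, every assembly factor, in each comparison the 4 called accessory subunits with the smallest p, every member whose fold had the opposite sign to its class median in the first or second comparison, and Ndufa4 and Ndufa4l2. 1 member is not reported here and enters only counts, medians and sums. Single library values were compared with exact permutation tests. Nothing states that mice were housed or processed apart, so p-values measure the spread between these animals. Principal transcript lengths, locations and shared 31-base words came from GENCODE M21 (GRCm38), and promoter windows from RefSeq (GRCm38.p6). Alternatives were DESeq2 1.42.0, no filter, the deposited effective length as offset, limma 3.58.1 on log2(TPM + 1) and log2(TPM + 0.1), a matrix like the study's (13344 protein-coding genes detected in 90% of libraries), scaling without mitochondrial genes, 2 groups alone, and leaving out each library. A transcript length trend and a red cell covariate were added after seeing the data.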

Additional observations from a re-analysis of the deposited data

Results flagged for a closer look

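Dixon's gap test for 1 sample far from the other 3 of its group was applied to the CPM of the 25 named genes and to 6 library measures, 93 groups of 4 in all, where chance gives about 1 in 20. It marked 1 value, Ndufaf7 in HFpEF-Veh, where V1 was lowest at 1.1 CPM and the other 3 libraries read 1.73 to 1.82. Ndufaf7 was the scarcest assembly factor, with 63.7 to 279 counts per library.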

How the results depend on the processing

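No paired analysis was possible because the groups hold different animals with numbers of their own. In the 3 comparisons, in the order of the report, 7, 16 and 1 members were called. DESeq2 called 15, 22 and 3. No filter gave 5, 14 and 1, and scaling without mitochondrial genes 7, 16 and 1. The effective length as offset gave 1, 4 and 0, log2(TPM + 1) 0, 26 and 0, log2(TPM + 0.1) 0, 29 and 0, the matrix like the study's 3, 7 and 0, and 2 groups alone 3, 25 and 1. Where limma on log2(TPM + 1) called 0 members, 19 in the first comparison and 10 in the last had an unadjusted p under 0.05. With the offset or the study's matrix 7 and 13 had one in the last. Counts over all genes at that unadjusted cut are not given for these fits. The length trend gave 14, 18 and 4, and the red cell covariate 0, 0 and 1, both chosen after seeing the data. Over all genes the length trend gave 3315, 2786 and 1023 of 13269, and the red cell covariate 3, 6 and 452 of 14333. With 1 library left out, the counts of members ran from 2 to 31, 5 to 15 and 1 to 2. Those of all genes ran from 1992 to 4008, 1493 to 2746 and 317 to 815.

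On log2(TPM + 1) the second comparison's median was 0.61 for subunits and 0.57 for assembly factors, and the last's 0.23 and 0.41. On log2(TPM + 0.1) these were 0.61, 0.73, 0.24 and 0.45, and assembly factors had -0.26 in the first. TPM moved the median of all genes too, by -0.16, 0.34 and 0.19 with the pseudocount of 0.1. Ndufa10 in the second comparison reversed to -0.76 with the offset, -0.39 on both TPM scales and -0.84 in the study's matrix, none of them called. In the first comparison it turned from -0.15 to 0.82, 0.64 on both TPM scales and 0.90, again not called. The cause of these moves was not tested. The other medians of subunits and assembly factors moved by less than 1 SD of their score between libraries (0.163 and 0.116, log2). For the 25 genes of the naming rule, 1347 fold changes under the alternatives gave 139 lost calls, 23 gained calls, the 4 reversals of a called value, and 1181 on the same side of the threshold, of which 76 changed sign with neither value called. Ndufaf7 and Ndufa4 rest on few counts, with an SE of 0.219 and 0.98 in the first comparison.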
